A study of Mus musculus with 8 samples.

Results

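A set of 10 genes of mucus-producing epithelium, out of the 25466 genes in the table, was examined in medullary thymic epithelial cells (mTECs) sorted into 4 subsets. They are the mucin genes Muc1, Muc4, Muc13, Muc20 and Muc5b, the trefoil factor Tff3, the protein disulfide isomerase Agr2, the transcription factor Spdef, and Ceacam1 and Ceacam10 of the carcinoembryonic antigen family. They were picked by symbol, with earlier results of these data known, and all 10 passed the filter on low counts. The study asked how tissue-restricted antigens are expressed together in mTECs, the cells that display such antigens to developing thymocytes. Tspan8, itself a tissue-restricted antigen, and the surface level of MHCII divided the cells of wild-type mice, named BL6N6 by the study and 4 to 6 weeks old. MHCIIlo mTECs hold immature cells as well as late ones that have lowered MHCII, so the MHCII level is not a scale of maturation. Every library was made from CD45-negative, Epcam-positive and CDR1-negative cells of the thymus. The groups were Tspan8neg MHCIIlo, Tspan8neg MHCIIhi, Tspan8pos MHCIIhi and Tspan8pos MHCIIlo, with 2 libraries each that the labels call biological replicates. Nothing in the sources used here says whether the libraries of different subsets came from the same animals.

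Mucus is built from large glycoproteins whose serine- and threonine-rich stretches carry dense O-linked sugars. Gel-forming mucins such as Muc5b are packed into granules and secreted, whereas membrane mucins such as Muc1, Muc4 and Muc13 stay on the cell surface. Goblet cells secrete trefoil factors along with the mucins, need Agr2 to fold mucins in the endoplasmic reticulum, and mature under the control of Spdef. Ceacam proteins are immunoglobulin-like adhesion molecules of epithelial and other cell surfaces.

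The members lie on 5 chromosomes in the GRCm38 genome, and a few are neighbours. Ceacam10 (chr7:24777206-24784657, plus strand) and Ceacam1 (chr7:25461707-25477603, minus strand) are 677 kb apart with 24 protein-coding genes between them. Muc5b (chr7:141839070-141873084, plus strand) lies far from both. Muc4 (chr16:32735886-32782391, plus strand) and Muc20 (chr16:32777419-32797435, minus strand) overlap tail to tail, exons included. Muc13 (chr16:33794037-33819934, plus strand) starts 997 kb beyond Muc20. Tff3 (chr17:31125306-31129646) and Spdef (chr17:27714352-27728955), both on the minus strand, are 3396 kb apart. Muc1 is at chr3:89229057-89233381 and Agr2 at chr12:35992907-36004087, both on the plus strand. All 10 are protein-coding genes.

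The promoters of 8 members were in the RefSeq table for GRCm38.p6, from 250 bases before to 50 bases after the start site; Muc5b and Tff3 were not. The Ceacam pair is shown because its genes, described below, differed in expression while their promoters were nearly the same, and Agr2 and Spdef because they stand for the folding and the control of mucus. All are written 5′ to 3′ on the strand of the gene. Capitals in the Ceacam promoters mark CACCC, the core letters bound by Klf factors, and CACGTG, an E-box. Capitals in the Agr2 promoter mark CACCC, which reads GGGTG where it lies on the opposite strand, and those in the Spdef promoter mark AGGAAG, a core of the Ets family to which Spdef belongs, which reads CTTCCT on the opposite strand. The regions are chr7:25477576-25477875 for Ceacam1 (minus strand), chr7:24776954-24777253 for Ceacam10 (plus strand), chr12:35992675-35992974 for Agr2 (plus strand) and chr17:27728902-27729201 for Spdef (minus strand). The table gives 2 starts for Ceacam10, of which 1 is printed.
Ceacam1: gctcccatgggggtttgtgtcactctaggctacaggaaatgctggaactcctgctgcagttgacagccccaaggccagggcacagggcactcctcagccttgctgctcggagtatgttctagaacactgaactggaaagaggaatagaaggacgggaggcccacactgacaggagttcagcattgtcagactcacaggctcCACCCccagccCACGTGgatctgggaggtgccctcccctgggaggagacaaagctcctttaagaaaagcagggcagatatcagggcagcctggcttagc
Ceacam10: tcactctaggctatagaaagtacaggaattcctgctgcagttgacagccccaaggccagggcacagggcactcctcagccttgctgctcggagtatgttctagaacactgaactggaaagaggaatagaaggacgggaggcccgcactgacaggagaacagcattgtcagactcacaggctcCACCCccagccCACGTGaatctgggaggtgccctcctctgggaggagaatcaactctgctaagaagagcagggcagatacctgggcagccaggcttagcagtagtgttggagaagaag
Agr2: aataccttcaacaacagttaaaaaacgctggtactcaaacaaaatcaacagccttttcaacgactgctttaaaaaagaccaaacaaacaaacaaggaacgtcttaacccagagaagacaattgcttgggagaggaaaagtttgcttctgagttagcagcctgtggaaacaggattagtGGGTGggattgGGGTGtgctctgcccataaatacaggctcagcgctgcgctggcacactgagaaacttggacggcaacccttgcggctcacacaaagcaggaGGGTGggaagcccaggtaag
Spdef: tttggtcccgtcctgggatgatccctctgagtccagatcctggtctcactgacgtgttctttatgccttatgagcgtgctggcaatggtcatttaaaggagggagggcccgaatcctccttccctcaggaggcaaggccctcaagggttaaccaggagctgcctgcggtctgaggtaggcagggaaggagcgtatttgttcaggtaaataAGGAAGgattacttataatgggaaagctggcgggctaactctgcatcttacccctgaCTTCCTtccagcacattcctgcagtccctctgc

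Aligned to each other, the Ceacam1 and Ceacam10 promoters were identical at 259 of 281 aligned bases (92.2%), against 60.7% to 67.6% when either was aligned in the same way to the Agr2 or Spdef promoter. The E-box CACGTG lay 38 bases before the start of Ceacam1 and 57 bases before that of Ceacam10, with a CACCC 49 and 68 bases before the start. Of 32851 promoters of this length in the table, 7.15% held CACGTG and 57.5% held CACCC on either strand. CACCC was in 5 of the 8 member promoters, namely those of Muc4, Muc20, Agr2, Ceacam1 and Ceacam10. The Ets-type letters AGGAAG were in 3 (Muc4, Muc20 and Spdef) against 35.4% of all promoters, and CAGGAA, which can overlap AGGAAG in the letters AGGAA, was in 5 (Muc1, Muc20, Spdef, Ceacam1 and Ceacam10) against 30.6%. TATAAA was found 31 bases before the Muc1 start and 36 bases before the Muc4 start, and in 13.6% of all promoters. These matches describe the printed windows and are not evidence of binding.

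Library totals ran from 1941518 to 7783841 estimated counts, both in Tspan8pos MHCIIlo (replicates 1 and 2). Levels are given as CPM, counts scaled to the library total. A floor of 3 counts corresponds to between 0.385 and 1.55 CPM before TMM scaling. The sort was visible in the RNA. Tspan8 was at 347 to 404 normalized CPM in the Tspan8pos libraries and at 3.65 to 14.6 in the Tspan8neg libraries. H2-Ab1, a chain of MHCII, averaged 5043 CPM in Tspan8neg MHCIIhi, 2525 in Tspan8pos MHCIIhi, 1887 in Tspan8neg MHCIIlo and 503 in Tspan8pos MHCIIlo, so the MHCII gates did not hold equal levels across the Tspan8 gate. The summed level of 10 thymocyte markers was 444 and 1213 CPM in the 2 Tspan8neg MHCIIlo libraries and 72.6 to 223 in the other 6. In the same 2 libraries, 8 B and plasma cell markers summed to 566 and 954 CPM, against 49.6 to 168 in the other 6, and 8 fibroblast and endothelial markers to 229 and 310, against 83.9 to 204. In Tspan8pos against Tspan8neg within MHCIIlo, 4 of the 10 thymocyte markers, 3 of the 8 B and plasma cell markers and 2 of the 8 fibroblast and endothelial markers were called lower, and 1 B and plasma cell marker was called higher. Of all tested genes, 9.34% were called lower and 12.1% higher there. The 8 myeloid and dendritic cell markers were instead lowest in Tspan8neg MHCIIlo, summing to 191 and 271 CPM. They summed to 523 and 628 in Tspan8neg MHCIIhi, 685 and 724 in Tspan8pos MHCIIhi, and 377 and 340 in Tspan8pos MHCIIlo. For Tspan8, 1 was called higher and 1 lower within MHCIIlo, and 1 higher and 2 lower within MHCIIhi. The 10 tuft cell markers summed to 8480 and 8513 CPM in Tspan8pos MHCIIlo, 1505 and 2075 in Tspan8neg MHCIIlo, 1344 and 1549 in Tspan8pos MHCIIhi, and 189 and 227 in Tspan8neg MHCIIhi. The part of these other cells in the results below was not tested. In sorted bulk samples, a larger share of cells that express a gene and more RNA per such cell cannot be told apart.

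Comparing Tspan8pos with Tspan8neg mTECs asked whether the goblet-type genes go with the expression of another tissue-restricted antigen. In the Tspan8pos cells, 9 of the 10 genes were higher than in Tspan8neg cells within MHCIIlo (against 12.1% of 17006 tested genes called higher), and 8 of 10 within MHCIIhi (11%). None was called lower in either comparison (9.34% and 7.45%). The same 8 genes were higher at both MHCII levels, against 7.19% of tested genes. The members were chosen with earlier results of these data known, so these shares describe the set and do not test it. A gene was called when the Benjamini-Hochberg adjusted p of edgeR's quasi-likelihood test was under 0.01 and the fitted log2 fold change was at least 1 in size. The median log2 fold change of the 10 was 3.65 within MHCIIlo and 2.53 within MHCIIhi, beside -0.03 over all tested genes in both. For 8 of the 10, every Tspan8pos library lay above every Tspan8neg library, which held for 16.1% of tested genes. The exceptions were Muc1 and Ceacam10.

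**Figure D1:**
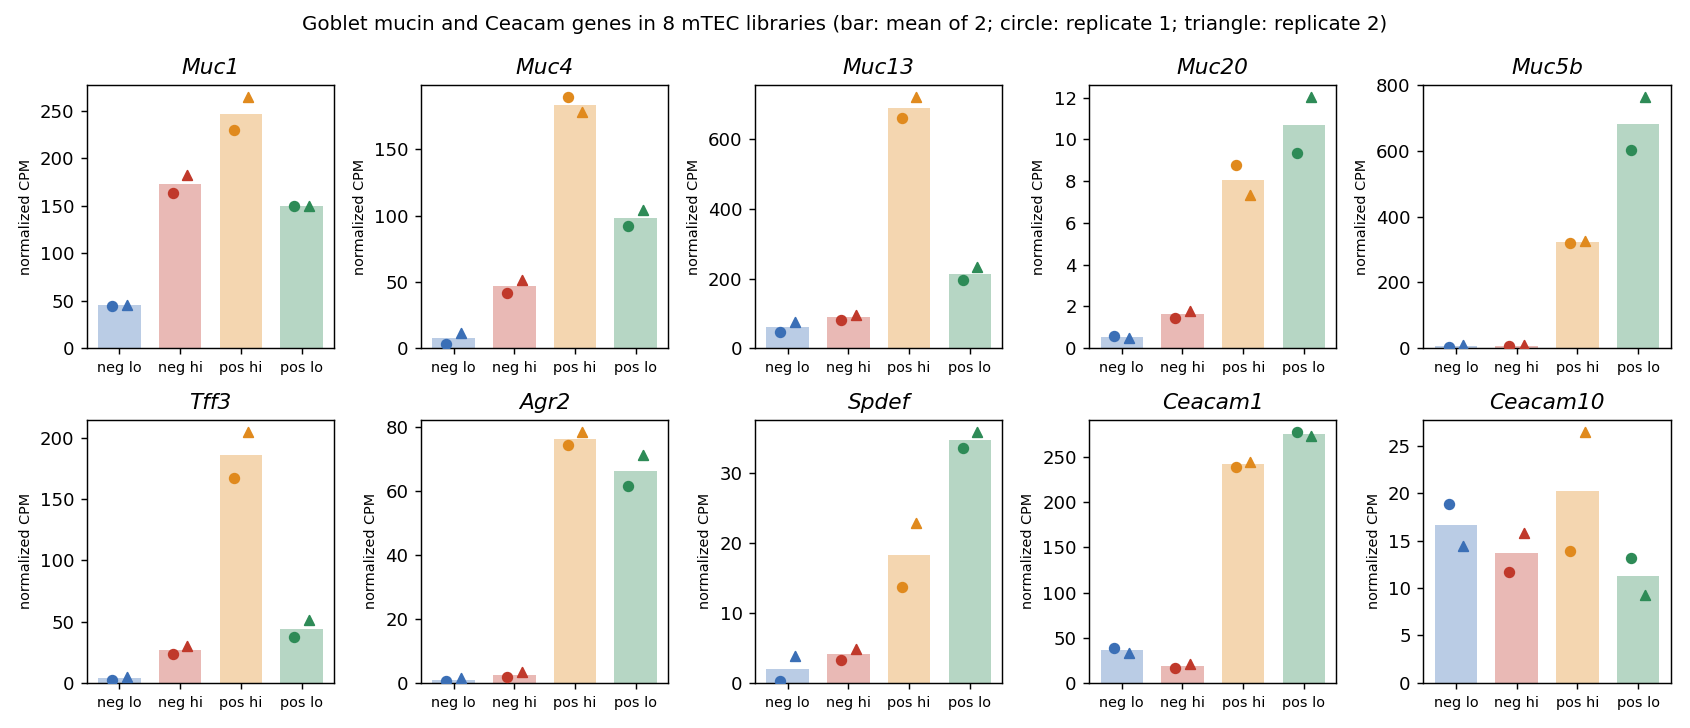
Normalized CPM (linear axis, its own scale per gene) of the 10 genes in the 8 libraries, with bars for the mean of 2 libraries, circles for replicate 1 and triangles for replicate 2. Muc5b reached 604 and 763 CPM in Tspan8pos MHCIIlo and at most 9.48 CPM in a Tspan8neg library, whereas Ceacam10 lay between 9.28 and 26.4 CPM in all 8.

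Muc5b, the gel-forming mucin of the airways, showed the largest difference of the 10. Its normalized CPM were 4.49 and 8.49 in Tspan8neg MHCIIlo, 5.41 and 9.48 in Tspan8neg MHCIIhi, 319 and 325 in Tspan8pos MHCIIhi, and 604 and 763 in Tspan8pos MHCIIlo. The 4 Tspan8pos libraries stood far above the 4 Tspan8neg libraries, and within the Tspan8pos cells the MHCIIlo libraries were the higher ones. For Tspan8 the log2 fold change was 6.69 (SE 0.293, edgeR adjusted p = 1.04e-07) within MHCIIlo, a 103-fold difference, and 5.38 (SE 0.269, edgeR adjusted p = 2.54e-07) within MHCIIhi, or 41.6-fold. Per kilobase of exon, the mean level of Muc5b in Tspan8pos MHCIIlo was 45.7 CPM, since the gene has 14964 exonic bases.

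Agr2, which forms disulfide bonds in nascent mucins, shared the Tspan8 split of Muc5b but had its highest mean in Tspan8pos MHCIIhi. Its CPM were 0.562 and 1.41 in Tspan8neg MHCIIlo, 1.87 and 3.33 in Tspan8neg MHCIIhi, 74.3 and 78.4 in Tspan8pos MHCIIhi, and 61.6 and 71.3 in Tspan8pos MHCIIlo. It reached at most 3.33 CPM in a Tspan8neg library. The MHCIIhi libraries lay above the MHCIIlo libraries within each Tspan8 gate, but neither difference was called. For MHCII the log2 fold change was 1.40 (edgeR adjusted p = 0.0383) in Tspan8neg and 0.19 (edgeR adjusted p = 0.570) in Tspan8pos cells. For Tspan8 it was 6.0 (SE 0.329, edgeR adjusted p = 2.92e-07) within MHCIIlo and 4.79 (SE 0.256, edgeR adjusted p = 3.23e-07) within MHCIIhi. The MHCIIlo value rested on 2 and 6 counts in the Tspan8neg libraries and was 6.84 without Tspan8neg MHCIIlo replicate 2.

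Tff3, the trefoil peptide of intestinal goblet cells, differed from Muc5b in where it peaked. Its CPM were 2.53 and 4.72 in Tspan8neg MHCIIlo, 23.9 and 29.7 in Tspan8neg MHCIIhi, 167 and 205 in Tspan8pos MHCIIhi, and 37.4 and 51.3 in Tspan8pos MHCIIlo. The 4 subsets did not overlap, and the order was Tspan8pos MHCIIhi, Tspan8pos MHCIIlo, Tspan8neg MHCIIhi and Tspan8neg MHCIIlo, with no call between the second and the third (log2 fold change 0.76, edgeR adjusted p = 0.0124). The Tspan8 log2 fold change was 3.62 (SE 0.296, edgeR adjusted p = 4.02e-06) within MHCIIlo and 2.78 (SE 0.209, edgeR adjusted p = 2.53e-06) within MHCIIhi. Per kilobase of exon, Tff3 had the highest level of the 10 in Tspan8pos MHCIIhi, 377 CPM, on an exonic length of 493 bases.

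Spdef, the Ets factor of goblet cell maturation, was low in each subset. Its CPM were 0.281 and 3.77 in Tspan8neg MHCIIlo, 3.33 and 4.87 in Tspan8neg MHCIIhi, 13.7 and 22.8 in Tspan8pos MHCIIhi, and 33.5 and 35.8 in Tspan8pos MHCIIlo. All Tspan8pos libraries were above all Tspan8neg libraries, while the 2 Tspan8neg MHCIIlo libraries differed 13.4-fold on 1 and 16 counts. The log2 fold change was 4.0 (SE 0.552, edgeR adjusted p = 0.00018) within MHCIIlo. It was 6.83 without Tspan8neg MHCIIlo replicate 2 and 3.19 without replicate 1. Within MHCIIhi it was 2.11 (SE 0.473, edgeR adjusted p = 0.00481). That call was lost with all libraries thinned to the smallest total (log2 fold change 1.25, edgeR adjusted p = 0.0511) and on leaving out either Tspan8neg MHCIIhi library, Tspan8pos MHCIIhi replicate 2 or either Tspan8pos MHCIIlo library (edgeR adjusted p from 0.0110 to 0.0558).

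Among the membrane mucins, Muc13, abundant on intestinal epithelium, had the highest level per kilobase of exon in Tspan8pos MHCIIhi, 227 CPM. Not scaled for length, its CPM were 47.7 and 75.0 in Tspan8neg MHCIIlo, 81.3 and 95.4 in Tspan8neg MHCIIhi, 661 and 721 in Tspan8pos MHCIIhi, and 195 and 234 in Tspan8pos MHCIIlo. The subsets did not overlap, and Tspan8pos MHCIIhi stood well above the rest. For Tspan8 the log2 fold change was 1.8 (SE 0.203, edgeR adjusted p = 4.27e-05) within MHCIIlo and 2.96 (SE 0.203, edgeR adjusted p = 1.3e-06) within MHCIIhi. Of the 54-base stretches of its transcripts, 5.04% also occur in Gm15657.

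Muc4, a membrane mucin that binds the receptor ErbB2, had the same order of subset means as Tff3. Its CPM were 3.37 and 11.6 in Tspan8neg MHCIIlo, 41.8 and 51.8 in Tspan8neg MHCIIhi, 189 and 178 in Tspan8pos MHCIIhi, and 92.3 and 104 in Tspan8pos MHCIIlo. No subset overlapped another. The log2 fold change was 3.68 (SE 0.331, edgeR adjusted p = 8.26e-06) within MHCIIlo and 1.97 (SE 0.261, edgeR adjusted p = 0.000155) within MHCIIhi. The 2 Tspan8neg MHCIIlo libraries differed 3.43-fold, and the MHCIIlo value was 4.87 without replicate 2 of that subset and 3.09 without replicate 1.

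Muc20, a membrane mucin, had the lowest level per kilobase of exon of the 10 in each subset, from 0.13 to 2.65 CPM. Its counts were 2 and 2 in Tspan8neg MHCIIlo, 7 and 14 in Tspan8neg MHCIIhi, 44 and 36 in Tspan8pos MHCIIhi, and 17 and 88 in Tspan8pos MHCIIlo. In CPM these were 0.562 and 0.472, 1.46 and 1.79, 8.76 and 7.31, and 9.34 and 12. The groups split by Tspan8 without overlap. The pooled counts of 105 against 4 gave a 22.4-fold ratio between Tspan8pos and Tspan8neg within MHCIIlo, with a 95% interval of 8.49 to 83.7 that covers counting error only. The fitted log2 fold change was 4.34 (SE 0.525, edgeR adjusted p = 7.26e-05) there, and 3.63 after thinning to the smallest total. It was 2.27 (SE 0.406, edgeR adjusted p = 0.00121) within MHCIIhi. The MHCIIhi call was lost after thinning (log2 fold change 1.56, edgeR adjusted p = 0.0463) and on leaving out either Tspan8neg MHCIIhi library or Tspan8pos MHCIIhi replicate 1 (edgeR adjusted p from 0.0120 to 0.0195). Because Muc20 and Muc4 share exonic sequence on opposite strands (11.8% of the 54-base stretches of Muc20 and 4.16% of those of Muc4), reads of the shared piece could have been counted for either gene.

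Muc1, the membrane mucin found on most glandular epithelia, had the smallest Tspan8 log2 fold change of the 9 genes called within MHCIIlo. Its CPM were 44.7 and 45.7 in Tspan8neg MHCIIlo, 164 and 182 in Tspan8neg MHCIIhi, 229.8 and 264 in Tspan8pos MHCIIhi, and 150.1 and 150.2 in Tspan8pos MHCIIlo. Tspan8neg MHCIIlo stood below all others, and Tspan8neg MHCIIhi was slightly above Tspan8pos MHCIIlo (log2 fold change 0.21, edgeR adjusted p = 0.224). Within MHCIIlo the Tspan8 log2 fold change was 1.73 (SE 0.143, edgeR adjusted p = 4.37e-06). Within MHCIIhi it was 0.51 (SE 0.131, edgeR adjusted p = 0.00978), which was inside the limit on the fold change.

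The 2 Ceacam genes behaved differently from each other. Ceacam1, an adhesion and inhibitory receptor, was at 38.8 and 33.5 CPM in Tspan8neg MHCIIlo, 16.2 and 20.6 in Tspan8neg MHCIIhi, 239.6 and 245 in Tspan8pos MHCIIhi, and 278 and 273 in Tspan8pos MHCIIlo. It was high in all 4 Tspan8pos libraries and lowest in Tspan8neg MHCIIhi. The fitted log2 fold change was 2.93 (SE 0.157, edgeR adjusted p = 2.65e-07) within MHCIIlo and 3.70 (SE 0.162, edgeR adjusted p = 1.75e-07) within MHCIIhi.

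Ceacam10, a rodent family member with the near-identical promoter printed above, was at 18.8 and 14.4 CPM in Tspan8neg MHCIIlo, 11.6 and 15.8 in Tspan8neg MHCIIhi, 13.9 and 26.4 in Tspan8pos MHCIIhi, and 13.2 and 9.28 in Tspan8pos MHCIIlo. The subsets overlapped, except that Tspan8pos MHCIIlo lay below Tspan8neg MHCIIlo and Tspan8pos MHCIIhi. It was called in none of the 4 comparisons. Its Tspan8 log2 fold change was -0.63 (SE 0.362, edgeR adjusted p = 0.189) within MHCIIlo and 0.54 (SE 0.325, edgeR adjusted p = 0.213) within MHCIIhi. Of the 54-base stretches of Ceacam1, 29.3% also occur in Ceacam2 or Ceacam10, and of those of Ceacam10, 2.73% also occur in Ceacam1. Ceacam2 averaged 8.97 CPM at most in any subset.

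**Figure D2:**
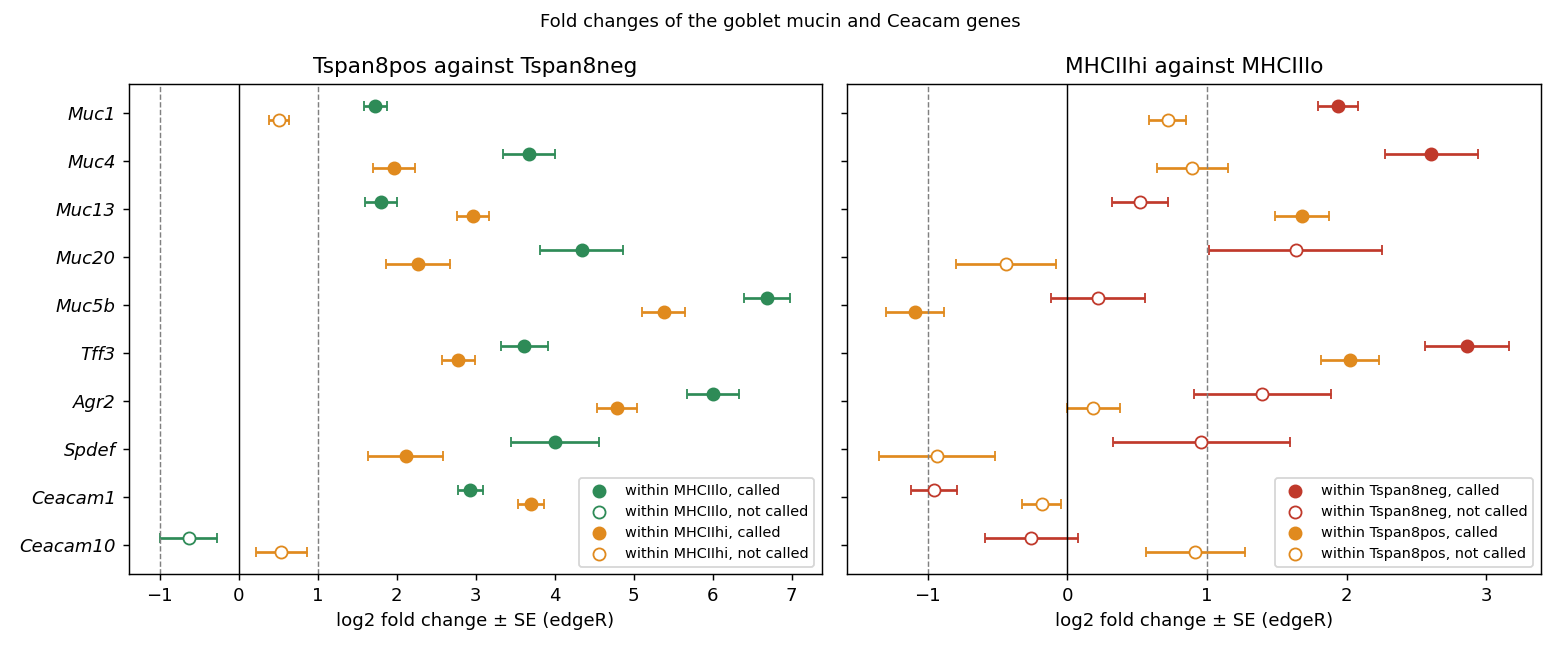
Fitted log2 fold changes (points) with their standard errors (bars) for Tspan8pos against Tspan8neg (left) and MHCIIhi against MHCIIlo (right), filled where called and open where not, with dashed lines at a log2 fold change of 1 in either direction. On the left, the points run from -0.63 for Ceacam10 to 6.69 for Muc5b, and on the right from -1.09 for Muc5b within Tspan8pos to 2.86 for Tff3 within Tspan8neg.

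Comparing MHCIIhi with MHCIIlo cells within each Tspan8 gate asked how the genes go with the MHCII level, whose gates hold different stages of mTEC development in Tspan8neg and Tspan8pos cells. These comparisons use the same libraries as those for Tspan8, so the values are given side by side. In Tspan8neg cells 3 of the 10 were higher in MHCIIhi (13.1% of tested genes) and none was lower (9.67%). They were Tff3 (log2 fold change 2.86, SE 0.301, edgeR adjusted p = 3.31e-05), Muc4 (2.61, SE 0.333, edgeR adjusted p = 0.000122) and Muc1 (1.94, SE 0.142, edgeR adjusted p = 3.16e-06). The Muc4 value was 3.78 without Tspan8neg MHCIIlo replicate 2 and 2.02 without replicate 1. Ceacam1 had a log2 fold change of -0.95 (SE 0.165, edgeR adjusted p = 0.000893), just inside the limit on the fold change. Without Tspan8neg MHCIIlo replicate 2, 5 members were called, with Spdef higher (3.79) and Ceacam1 lower (-1.06) in MHCIIhi besides these. The other members had edgeR adjusted p from 0.0383 for Agr2 to 0.629 for Muc5b.

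In Tspan8pos cells 2 of the 10 were higher in MHCIIhi (4.59%) and 1 was lower (2.62%). Tff3 (log2 fold change 2.02, SE 0.206, edgeR adjusted p = 7.97e-05) and Muc13 (1.68, SE 0.194, edgeR adjusted p = 0.000184) were higher in MHCIIhi. Muc5b was lower there (-1.09, SE 0.208, edgeR adjusted p = 0.00454). The Muc5b call was lost on leaving out any 1 of the 4 Tspan8pos libraries, where the log2 fold change lay between -1.22 and -0.90 (edgeR adjusted p from 0.0157 to 0.0767). Muc1 (0.72, edgeR adjusted p = 0.00375) was inside the limit on the fold change. Tff3 was thus called higher in MHCIIhi within both Tspan8 gates, and no other member was. The tuft cell markers, which were all called lower in MHCIIhi (10 of 10) within both gates, went the same way as Muc5b in Tspan8pos cells, and their part in that result was not tested. Of all tested genes, 9.67% were called lower in MHCIIhi within Tspan8neg and 2.62% within Tspan8pos.

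The median log2 fold change of the 10 for MHCIIhi against MHCIIlo was 1.18 in Tspan8neg cells and 0.45 in Tspan8pos cells, beside -0.04 and 0.01 over all tested genes. By subset means, 6 members were highest in Tspan8pos MHCIIhi (Muc1, Muc4, Muc13, Tff3, Agr2 and Ceacam10) and 4 in Tspan8pos MHCIIlo (Muc20, Muc5b, Spdef and Ceacam1). Of all tested genes, 17.4% and 24.2% were highest in these subsets. Between the 2 highest subsets, the difference was called for Muc13, Muc5b and Tff3. The lowest mean was in Tspan8neg MHCIIlo for 8 members, and the share of all tested genes lowest there was not computed.

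Whether the Tspan8 difference depended on the MHCII level was tested as an interaction. Muc1 was called (1 of 10, against 4.6% of tested genes called in either direction): its Tspan8 log2 fold change was larger by 1.22 in MHCIIlo than in MHCIIhi (SE 0.193, edgeR adjusted p = 0.0028). The call was lost on leaving out any 1 of 5 libraries, with the value between 1.09 and 1.31 and edgeR adjusted p from 0.0102 to 0.0231. Next came Muc13 (-1.16, SE 0.277, edgeR adjusted p = 0.0205) and Muc4 (1.71, SE 0.424, edgeR adjusted p = 0.0244), which were not called by edgeR with the filter on low counts. Both were called by DESeq2 (adjusted p = 0.00164 for Muc13 and 0.000461 for Muc4, with Muc5b called too at 0.00275) and by edgeR without that filter (adjusted p = 0.00626 and 0.0019). The Muc4 value was 1.10 without Tspan8neg MHCIIlo replicate 1. Without replicate 2 of that subset Muc4 (2.89, edgeR adjusted p = 0.00011), Spdef (4.72, edgeR adjusted p = 0.00327) and Muc5b (1.86, edgeR adjusted p = 0.00895) were called besides Muc1. Muc13 was called without replicate 1 of that subset (-1.47, edgeR adjusted p = 0.000432) and after thinning (-1.29, edgeR adjusted p = 0.00578). The difference was positive, thus larger in MHCIIlo, for 7 of 10 members, and the share of all tested genes with a positive difference was not computed.

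The 8 libraries also give how alike the members' patterns were, as a description. Over log2 CPM in 8 libraries that differ in depth and share a sort, Muc5b and Agr2 had a Pearson correlation of 0.980, the highest of any pair, and Ceacam10 lay between -0.23 and 0.20 with the other 9. The search covered 11048 tested genes averaging 10 CPM or more, and those closest to Muc5b were Lypd5, Mansc1 and Tnfaip2 (r = 0.999 for each). Closest to Agr2 were Pdzk1ip1 (0.999), Lipk (0.998) and Krt10 (0.998), the last a keratin of cornifying epidermis. Muc13 was closest to Anxa13 (0.992), Lgals4 (0.989), a galectin of intestinal epithelium, and Pigr (0.987), the receptor that carries polymeric antibodies across epithelia. Muc1 was closest to Mfsd4a (0.996), Aqp3 (0.994) and Tgm3 (0.993). Muc20 was closest to Tgfa (0.998), Tmem62 (0.996) and Msmo1 (0.995), Tff3 to Gsta1 (0.995), Dcxr (0.992) and BC031181 (0.992), and Spdef to Fer1l4 (0.991), Alkbh6 (0.989) and Crat (0.989). Ceacam1 was closest to Clu (0.999), Cttnbp2 (0.999) and Anxa8 (0.998), whereas the closest gene to Ceacam10 was Mrpl34 at 0.894, followed by Tceanc2 (0.835) and Cuta (0.829).

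The other mucin genes gave another split of calls. Of 11 tested, 5 were higher and none lower in Tspan8pos within MHCIIlo, against 12.1% and 9.34% of all tested genes. Within MHCIIhi, 3 were higher and 1 lower, against 11% and 7.45%. In Tspan8neg cells, 9 of the 11 were higher in MHCIIhi, against 13.1%. Muc5ac, the gel-forming mucin of stomach and airway, was at 3.93 and 11.6 CPM in Tspan8neg MHCIIlo, 78.2 and 102 in Tspan8neg MHCIIhi, 233 and 228 in Tspan8pos MHCIIhi, and 212 and 259 in Tspan8pos MHCIIlo. The Tspan8pos libraries of Muc5ac overlapped between MHCII levels and stood above both Tspan8neg subsets. Its Tspan8 log2 fold change was 4.89 within MHCIIlo (edgeR adjusted p = 8.63e-07) and 1.35 within MHCIIhi (edgeR adjusted p = 0.00131).

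Muc2, the gel-forming mucin of the intestine, was at 1.40 and 0 CPM in Tspan8neg MHCIIlo, 25.6 and 30.1 in Tspan8neg MHCIIhi, 42.2 and 54 in Tspan8pos MHCIIhi, and 21.4 and 31.8 in Tspan8pos MHCIIlo. It was at or near the floor in Tspan8neg MHCIIlo. Muc2 was among the other mucins called higher in Tspan8pos within MHCIIlo, with means of 26.6 against 0.702 CPM. Its Tspan8 log2 fold change within MHCIIhi was 0.78 (edgeR adjusted p = 0.0531), so it was not called there. Muc3 was called higher in Tspan8pos at both levels (1.48 and 1.20), as was Muc15 (4.37 and 3.27). Muc3a was called for MHCII (1.51 in Tspan8neg and 1.15 in Tspan8pos cells) and not for Tspan8. Of the 11 other mucins, 5 had their highest mean in Tspan8neg MHCIIhi, against 27.9% of all tested genes and none of the 10 members. Mucl1 was among them by 14.26 against 14.15 CPM in Tspan8pos MHCIIhi, with overlapping libraries. Muc15 overlaps Ano3 on the opposite strand, exons included, so that its counts are uncertain, and whether Muc3 and Muc3a share sequence was not examined.

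Of the other Ceacam genes, 12 were in the table and 6 were tested. In Tspan8pos within MHCIIlo, 1 was higher and none lower, against 12.1% and 9.34% of all tested genes. Within MHCIIhi, 2 were higher and 3 lower, against 11% and 7.45%. Ceacam19, at 0.843 to 4.24 CPM in the Tspan8neg libraries and 54.7 to 91.0 in the Tspan8pos libraries, was higher with Tspan8 as Ceacam1 was. Its log2 fold change came to 4.98 within MHCIIlo (edgeR adjusted p = 4.42e-06) and 4.55 within MHCIIhi (edgeR adjusted p = 5.59e-06). Ceacam18 and Ceacam15 were among the 3 that were lower within MHCIIhi. Ceacam18 was at 41.6 and 54.7 CPM in Tspan8neg MHCIIhi against 20.9 and 23.2 in Tspan8pos MHCIIhi (log2 fold change -1.13, edgeR adjusted p = 0.0022). Ceacam15 was at 21.4 and 26.7 against 4.98 and 6.71 CPM (log2 fold change -2.04, edgeR adjusted p = 0.00152). Both were at or below 2.81 CPM in all 4 MHCIIlo libraries. Ceacam20 was highest in Tspan8pos MHCIIhi, at 42.2 and 35.8 CPM against 13.7 and 16.2 in Tspan8neg MHCIIhi. It was called higher in MHCIIhi within both gates (2.06 and 2.54).

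**Figure D3:**
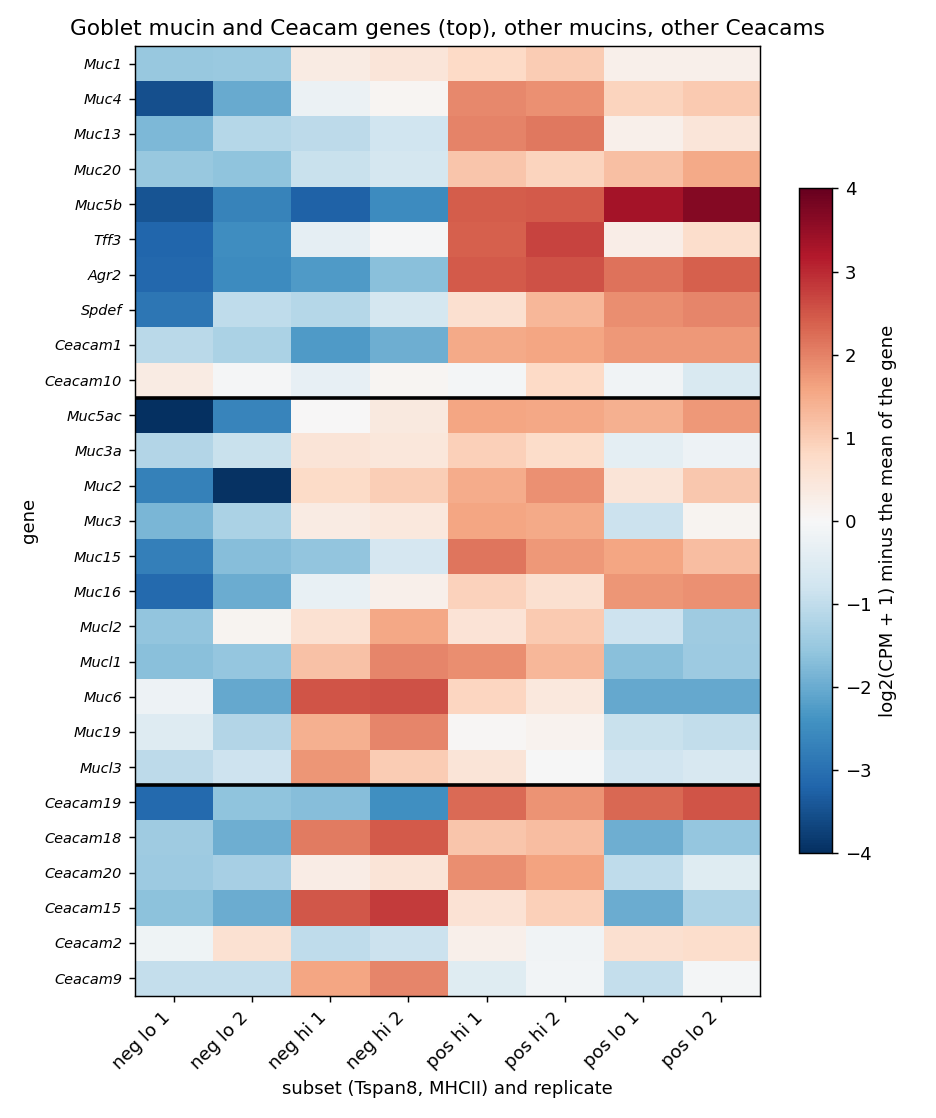
Level of each gene in each library as log2(CPM + 1) minus the gene's own mean over the 8 libraries, for the 10 goblet mucin and Ceacam genes (top block), 11 other mucin genes and 6 other Ceacam genes, with columns in the order Tspan8neg MHCIIlo, Tspan8neg MHCIIhi, Tspan8pos MHCIIhi, Tspan8pos MHCIIlo. In the top block, 8 of 10 genes are higher in every Tspan8pos column than in any Tspan8neg column, the exceptions being Muc1 and Ceacam10. By mean CPM, 5 other mucins and 3 other Ceacams are highest in Tspan8neg MHCIIhi. For Mucl1, Tspan8neg MHCIIhi and Tspan8pos MHCIIhi were nearly level (14.26 and 14.15 CPM).

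Further products that goblet and neighbouring secretory cells release were also examined. In Tspan8pos cells, 7 of 13 tested were higher within MHCIIlo and 10 of 13 within MHCIIhi, with none lower. Of all tested genes, 12.1% and 11% were higher, and 9.34% and 7.45% lower. Clca1, a protease of intestinal mucus, was at 19.1 and 48.8 CPM in Tspan8neg MHCIIlo, 28.9 and 39.2 in Tspan8neg MHCIIhi, 984 and 1044 in Tspan8pos MHCIIhi, and 336 and 449 in Tspan8pos MHCIIlo. Its Tspan8 log2 fold change was 3.52 within MHCIIlo (edgeR adjusted p = 1.23e-05) and 4.88 within MHCIIhi (edgeR adjusted p = 1.64e-06). Pigr (2.59 and 3.16), Dmbt1 (2.92 and 2.57), Bpifb1 (4.49 and 2.93), Spink4 (1.59 and 2.44) and the trefoil factors Tff1 (5.74 and 2.83) and Tff2 (3.31 and 2.18) were called at both levels as well. Tff1 shares exonic positions with Gm15318 on the opposite strand, as does Elf3, described below, with Gm26642. So do Qsox1, Bcas1, Cftr, Galnt5, Galnt6, St3gal4, St6galnac2 and Gfi1, also named below, with other genes on the opposite strand. The counts of these genes are therefore uncertain.

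Fcgbp, a mucin-linked protein, had the highest CPM of this list, not scaled for length, and was called in neither comparison for Tspan8 (0.36 and 0.72). It averaged 3344 CPM in Tspan8neg MHCIIlo and 8708 in Tspan8pos MHCIIhi. The highest mean was in Tspan8pos MHCIIhi for 12 of the 13, against 17.4% of all tested genes. Within Tspan8pos cells, 7 were called higher in MHCIIhi, against 4.59% of tested genes. The goblet factor Atoh1 was at 0 to 2.24 CPM and too low to be tested. Retnlb was listed at 0 in all 4 MHCIIlo libraries, and Zg16 reached 28.7 and 30.3 CPM in Tspan8pos MHCIIhi.

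The secretory machinery of mucus-releasing cells was also examined. Of 21 tested genes, 13 were higher in Tspan8pos within MHCIIlo and 12 within MHCIIhi, with none lower. The shares of all tested genes were 12.1% and 11% higher, and 9.34% and 7.45% lower. None was called between MHCII levels within Tspan8pos, where the median log2 fold change was 0.02. There, 4.59% of all tested genes were higher and 2.62% lower in MHCIIhi. Rab27b (2.48 and 4.56) and Rab3d (2.12 and 2.18), small GTPases of granule release, were higher in Tspan8pos at both levels, as were Sytl2 (1.62 and 1.85), Bcas1 (2.09 and 2.28) and the sulfhydryl oxidase Qsox1 (1.82 and 2.21). So were the ion channels Cftr (2.71 and 2.29) and Ano1 (4.51 and 2.05), Bace2 (2.08 and 3.48) and Xbp1 (1.08 and 1.44), a factor of the secretory unfolded protein response. Vamp8, a SNARE of granule fusion, was called within MHCIIlo (1.06) and not within MHCIIhi (0.82).

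Of 13 tested transcription factors of goblet and secretory cells, 5 were higher and 1 lower in Tspan8pos within each MHCII level. Of all tested genes, 12.1% and 11% were higher, and 9.34% and 7.45% lower, within MHCIIlo and MHCIIhi. The log2 fold changes of the list ran from -3.76 to 4.25 within MHCIIlo and from -1.61 to 2.68 within MHCIIhi. Klf4, Elf3 and Ehf were called higher at both levels, and no factor was called lower at both. Elf3, an epithelial Ets factor, averaged 203 CPM in Tspan8neg MHCIIlo, 180.5 in Tspan8neg MHCIIhi, 842 in Tspan8pos MHCIIhi and 1196 in Tspan8pos MHCIIlo (log2 fold changes 2.56 and 2.22). Klf4 (1.48 and 2.00) and Ehf (1.86 and 1.57), also an Ets factor, were likewise highest in Tspan8pos MHCIIlo, as was Spdef. Sox9 was called lower in MHCIIhi within both gates (-1.04 and -1.31) and not for Tspan8 (0.53 and 0.26). The highest mean of 8 of the 13 factors was in Tspan8pos MHCIIlo, against 24.2% of all tested genes. Foxa1 and Foxa3 had it in Tspan8pos MHCIIhi, Gfi1 in Tspan8neg MHCIIlo, and Cdx1 and Cdx2 in Tspan8neg MHCIIhi.

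Of the enzymes that build the O-linked sugars of mucins, 27 were tested. Within MHCIIlo, 10 were higher and 2 lower in Tspan8pos, against 12.1% and 9.34% of all tested genes. Within MHCIIhi, 7 were higher and none lower, against 11% and 7.45%. Galnt5 (2.54 and 3.53) and Galnt6 (1.46 and 2.72), which attach the first sugar, C1galt1 (1.23 and 1.77), which extends it, St3gal4 (2.50 and 3.19), which adds sialic acid, and Fut2 (2.36 and 3.12), which adds fucose, were called at both levels. St6galnac2 was called within MHCIIlo (2.35) and not within MHCIIhi (0.85), St3gal1 within MHCIIhi (1.28) and not within MHCIIlo (-0.21), and B4galt1 in neither (0.14 and 0.89).

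**Figure D4:**
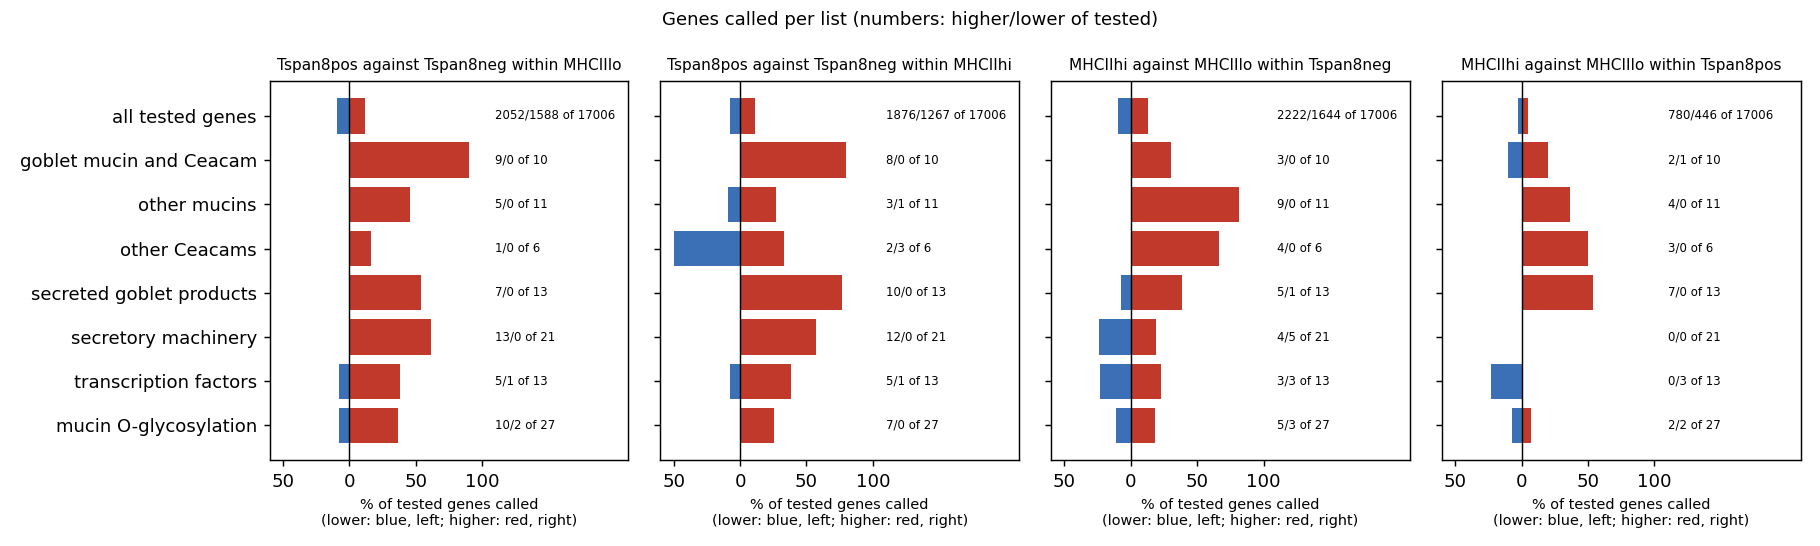
Share of tested genes called higher (right, red) and lower (left, blue) in each of the 4 comparisons, for all tested genes, the 10 goblet mucin and Ceacam genes and 6 related lists, with the numbers higher, lower and tested printed beside each bar. The 10 genes reach 9 of 10 and 8 of 10 in the 2 comparisons for Tspan8, and the other mucins reach 9 of 11 for MHCII in Tspan8neg cells. All tested genes reach 12.1%, 11% and 13.1% called higher in these comparisons.

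Lists of other peripheral epithelia held genes called higher with Tspan8 as well, and whether the goblet-type genes differ from them was not tested. Within MHCIIlo, 11 of 12 markers of keratinized epithelium, 8 of 10 of microfold cells, 9 of 10 of tuft cells and 3 of 12 of liver and absorptive intestine were higher in Tspan8pos cells, and within MHCIIhi 11 of 12, 6 of 10, 10 of 10 and 3 of 12. The shares of all tested genes called higher were 12.1% within MHCIIlo and 11% within MHCIIhi. In Tspan8neg MHCIIlo, replicate 2 exceeded replicate 1 by at least 2-fold in CPM for 3 of the 10 members (Spdef, Muc4 and Agr2). Agr2 did so on 2 and 6 counts. The share was 6.98% of 14741 genes with at least 10 counts in either library, after a small constant was added to each CPM. The members were counted without that limit and constant, so the 2 figures are not like for like. Tspan8 itself was 4.0-fold higher in replicate 2 of Tspan8neg MHCIIlo (14.6 against 3.65 CPM), and the thymocyte markers were higher there too.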

How the data were processed

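RNA-seq was analysed for 8 libraries of mTECs sorted from thymus by enzymatic digestion, CD45 depletion and FACS, 2 for each of 4 subsets. The authors quantified reads with Salmon 1.8.0 on Gencode (build mm10 per the labels) and deposited estimated counts per gene as whole numbers, without normalization. Rounding therefore changed nothing. FastQC and DESeq2 1.30.0 are also named in the submitters' processing notes. The paper describes cDNA pre-amplification with tagmentation and the labels a stranded mRNA kit, so whether strand was used is unsettled and genes overlapping on opposite strands are uncertain.

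Symbols and coordinates came from a later GENCODE release for GRCm38, which matched 25336 of 25466 identifiers (99.49%). Counts were tested in R 4.3.3 with edgeR 4.0.16: TMM normalization, filterByExpr on the 4 subsets (17006 genes kept), and glmQLFit and glmQLFTest on all 8 libraries together, with 1 mean for each subset (common dispersion 0.024). P-values are two-sided and adjusted by Benjamini-Hochberg over all tested genes. A gene was called below an adjusted p of 0.01 when its log2 fold change also reached 1 in size. Each standard error was obtained from the log2 fold change and its F statistic. With 2 libraries against 2, an exact permutation test could not reach 0.05 and was not run. P-values measure the spread between these libraries. Levels are TMM-normalized CPM. Totals ran from 1941518 to 7783841, and counting intervals and floors cover counting error only. Chi-square per gene between replicates was 3.29 to 9.84, so all libraries were kept as separate.

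The members and gene lists were chosen with earlier results of these data known. Named genes were the 10 members, the 4 most abundant tested genes of each related list and those called the same way for Tspan8 at both MHCII levels, and the 3 genes most correlated with each member, which are not reported here for Muc4. Ceacam2, Mucl1, Atoh1, Gfi1, Foxa1, Foxa3, Cdx1, Cdx2, Retnlb and Zg16 were named outside this rule, after their values were seen. St6galnac2 has 2 identifiers, of which the first was used. Promoters were aligned pairwise with Biopython 1.88. Alternatives were DESeq2 1.42.0, its size factors, other filters and thresholds, the replicate number as a block, thinning to 1941518 counts, the libraries of a contrast alone, leaving out each library, and another gene length. Same-numbered libraries deviated from their group means with correlations of 0.00402 to 0.0924, so the numbers were not taken as pairs.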

Additional observations from a re-analysis of the deposited data

Results flagged for a closer look

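For Muc1, a test of the difference itself called the Tspan8 effect unequal between the MHCII levels. Its log2 fold change was larger by 1.22 in MHCIIlo than in MHCIIhi (edgeR adjusted p = 0.0028), with 44.7 and 45.7 CPM in Tspan8neg MHCIIlo against 150.1 and 150.2 in Tspan8pos MHCIIlo, and with 164 and 182 CPM in Tspan8neg MHCIIhi against 229.8 and 264 in Tspan8pos MHCIIhi. All 4 Tspan8pos libraries were above the Tspan8neg libraries of their own MHCII level. The call was lost without Tspan8neg MHCIIhi replicate 2 or any 1 of the 4 Tspan8pos libraries (log2 fold change 1.09 to 1.31, edgeR adjusted p from 0.0102 to 0.0231). The cause was not tested.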

How the results depend on the processing

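Of 1018 values of the members under alternatives, 968 kept their direction and their side of the threshold, 30 lost a call, 15 gained one and 5 changed sign, none of the 5 being called. In Tspan8pos against Tspan8neg within MHCIIlo no call changed. The log2 fold change of Muc5b for MHCII in Tspan8neg cells was -0.025 after thinning, -0.13 without Tspan8neg MHCIIlo replicate 1, and between -0.20 (without Tspan8neg MHCIIhi replicate 2) and 0.78 over all libraries left out. That of Ceacam10 there ran from -0.45 to 0.022 (without Tspan8neg MHCIIhi replicate 1), and in Tspan8pos MHCIIhi against Tspan8neg MHCIIlo from -0.24 (without Tspan8pos MHCIIhi replicate 2) to 0.69. Members called for the interaction, 1 in the report, were 3 at an adjusted p under 0.05, 4 by DESeq2, 3 without a filter on low counts, 3 with the replicate block (Muc1, Muc13 at -1.16 and Muc4 at 1.70), 2 after thinning, and 0 to 4 on leaving out a library. It was 0 without Tspan8neg MHCIIhi replicate 2 or any 1 of the Tspan8pos libraries. Leaving out a library gave 9 members called for Tspan8 in MHCIIlo in each case, 6 to 8 in MHCIIhi, 3 to 5 for MHCII in Tspan8neg cells (5 without Tspan8neg MHCIIlo replicate 2) and 2 to 3 in Tspan8pos cells. Counts of calls in the related lists stayed within 1.5 times in 110 of 120 settings. The replicate block changed no other count of called members. Where an alternative moved a value, the cause was not tested. Low counts limit Muc20, Spdef and Agr2 in Tspan8neg cells.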
